A study of Mus musculus with 12 samples.

Results

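Gene expression in the hypothalamus of male mice raised in small litters was compared with that of control males. The members are 6 of the 12 arrays of the series, chosen by the sex and group in their labels: small-litter males 1, 2 and 3 and control males 1, 2 and 3. The other 6 arrays came from females, 3 small-litter and 3 control, and were used for the normalization, for the estimate of the spread between mice and for 1 comparison between the sexes. All mice were of the inbred strain FVB/NJ-Jax and were examined at postnatal day 180, so the males were adults when the tissue was taken. Total RNA of the excised hypothalamus was labelled with biotin and measured on Illumina bead arrays, 1 array for each mouse. The series title names the small litter as postnatal overnutrition. The number of pups per litter, the litters and dams that the 6 males came from, and their body weights are not stated in the sources used here. Where males of a group shared a litter, the p-values below describe the spread between these mice and not between litters.

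In a small litter fewer pups share the dam's milk, and the pups gain more weight before weaning than pups of a normal litter. The first weeks of life are also when axons from the arcuate nucleus, at the base of the hypothalamus, grow to the other nuclei that control feeding. Neurons there that make neuropeptide Y (Npy) drive feeding, those that make proopiomelanocortin (Pomc) restrain it, and both respond to leptin and insulin. Corticosterone, the glucocorticoid of mice, acts in the same tissue through a nuclear receptor that switches on a known set of target genes.

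The 6 male arrays did not form 2 even groups of 3. The probes of each male array had a median raw intensity between 102.6 and 108.1, and between 39.7% and 41.9% of 45281 probes were detected on each of the 12 arrays. The 95th percentile of the raw intensities, a measure of how bright the bright probes were, was 1496, 1553.9 and 1599.1 in control males 1, 2 and 3. It was 1587.8 in small-litter male 1 but only 1296.9 and 1243.7 in small-litter males 2 and 3. On the first principal component of all 12 arrays, which held 27% of the variance, the control males lay at 1.51, 1.15 and 4.29 and small-litter male 1 at 4.62. Small-litter males 2 and 3 lay far off, at 21.4 and 27.9, and the females between -12.2 and -4.41. Small-litter male 1 lay just above control male 3 on this axis, and the other 2 small-litter males stood apart from all 10 remaining arrays. On the first component of the 6 males alone, with 38.9% of their variance, the controls lay at -10.1, -12.4 and -11.8, small-litter male 1 at -6.01 and small-litter males 2 and 3 at 14.7 and 25.6. There small-litter male 1 was nearest to the controls but outside their range, on the side of the other small-litter males.

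**Figure D1:**
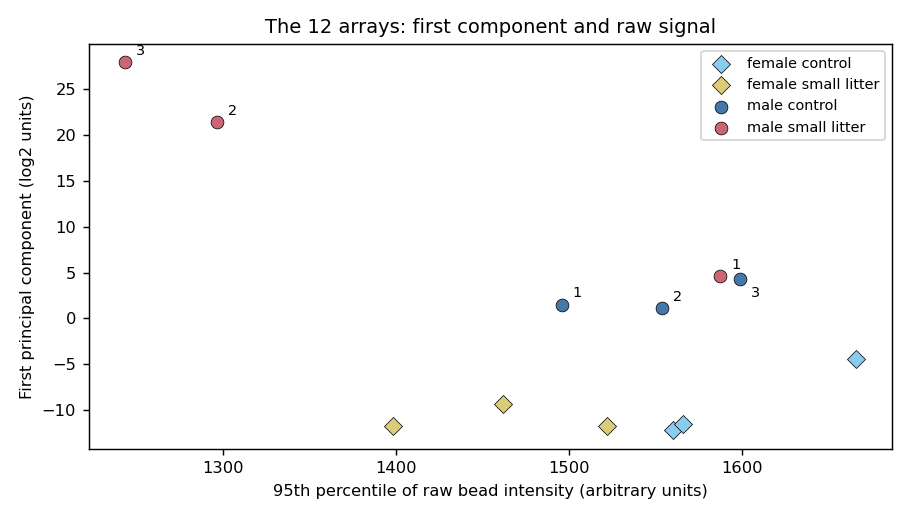
First principal component of the normalized log2 intensities (vertical axis) against the 95th percentile of the raw bead intensities (horizontal axis, arbitrary units) for the 12 arrays, with the replicate number beside each male. Small-litter males 2 and 3 lie at 21.4 and 27.9 on the component and have the 2 dimmest arrays, at 1296.9 and 1243.7, while small-litter male 1 lies at 4.62, just above control male 3 at 4.29.

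The standard deviation of the log2 difference over all 13547 tested features was 0.287 to 0.306 between 2 control males and 0.261 to 0.265 between small-litter male 1 and a control male. It was 0.327 to 0.33 between small-litter male 2 and a control, 0.365 to 0.38 between small-litter male 3 and a control and 0.272 between small-litter males 2 and 3. Small-litter male 1 differed from small-litter male 2 by 0.284 and from small-litter male 3 by 0.334. It was thus nearer to each control than to either of the other small-litter males, although its distance to small-litter male 2 was also below those between controls. The part that raw signal plays in these distances was not tested, and results are given below array by array, with values that leave out small-litter males 2 and 3.

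The labels were checked against marker genes. Xist, the transcript of the inactive X chromosome, was detected on 0 of 6 male arrays, and the Y-linked genes Kdm5d, Eif2s3y and Uty were detected on 6 of 6. Of 16 hypothalamus markers, 13 were measured and all 13 were detected in all 6 males, among them Avp, Oxt, Pmch, Hcrt, Pomc and Npy. Markers of meningeal fibroblasts, cells of the membranes around the brain, varied most between males. Relative to the control mean, the median of the 12 measured markers was -0.65, 0.91 and -0.65 in control males 1, 2 and 3 and -0.52, 0.26 and -0.69 in small-litter males 1, 2 and 3. Control male 2 was thus the highest and small-litter male 2 the next, and these markers did not separate the groups.

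No gene passed the threshold, an adjusted p under 0.05 by limma with Benjamini-Hochberg adjustment, in the comparison of small-litter with control males. The share called was 0% of 13547 features and the smallest adjusted p was 0.227. At an unadjusted p under 0.05 there were 1816 features (13.4%), 835 higher (6.16%) and 981 lower (7.24%) in small-litter males. The 3 small-litter males lay entirely above the 3 controls for 987 features (7.29%) and entirely below for 1024 (7.56%). Over all features 47.6% were higher, the median log2 difference was -0.01, and 162 features were more than 0.5 higher and 147 more than 0.5 lower. When arrays were scaled by their medians instead of their quantiles, the median of all features shifted by -0.105 and the split at an unadjusted p under 0.05 became 308 higher and 1879 lower. A p that misses the threshold does not show that expression was equal, and with 3 mice in a group the number of arrays limits every value. In the text below, each difference is the log2 intensity of small-litter males minus that of control males, with the standard error of the model (n = 3 per group). "Higher" and "lower" give its sign, not a call.

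The count of calls turned on 1 array. Without small-litter male 1, the fit of limma called 662 features at an adjusted p under 0.05 (4.89%), 291 higher (2.15%) and 371 lower (2.74%). Those calls compare small-litter males 2 and 3, the 2 arrays that stood apart, with the controls. Leaving out control male 2 or control male 3 gave 1 call each, and leaving out any other single array gave 0. A fit with small-litter male 1 as the only small-litter male has no spread within that group, so below it gives the sizes of differences only.

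Of the 10912 named genes, 1634 had no overlap between the 2 groups of males, and from these the 15 of smallest p on each side were taken for a closer look. Since they were taken for their p in this comparison, their values describe them and test nothing. On the higher side were genes of many functions. Tcirg1 encodes a subunit of the vacuolar proton pump, which acidifies lysosomes and vesicles. Its log2 intensity was 6.42, 6.38 and 6.48 in control males 1, 2 and 3 and 7.07, 7.20 and 7.19 in small-litter males 1, 2 and 3, a difference of 0.72 ± 0.12. All 3 small-litter males had nearly the same level, each well above every control. This held for 1 of 4 detected probes of Tcirg1 only, as the other 3 gave 0.10 ± 0.18, -0.39 ± 0.18 and -0.06 ± 0.12. Mark4, a kinase that phosphorylates microtubule-associated proteins, was at 5.65, 5.54 and 5.45 in the controls and at 6.20, 6.24 and 6.73 in the small-litter males (0.84 ± 0.17). Tmem176a, which encodes a transmembrane protein, was at 7.70, 7.70 and 7.69 in the controls, which hardly differed, and at 8.06, 8.54 and 8.48 in the small-litter males (0.66 ± 0.14). For Tmem176a small-litter male 1 lay between the controls and the other 2 small-litter males.

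The further genes on the higher side spanned signalling, chromatin and metabolism. Pafah1b1, the dynein regulator also known as Lis1, was at 9.23, 9.03 and 9.17 in controls and 9.43, 9.78 and 9.99 in small-litter males (0.59 ± 0.13), but its other detected probe was at 0.07 ± 0.10. Hpgds, a prostaglandin D synthase, differed by 0.61 ± 0.12, and its other probe by 0.26 ± 0.21. Scly, the lyase that frees selenium from selenocysteine, differed by 0.48 ± 0.10, and its other probe by -0.06 ± 0.12. For these 3 genes 1 of the detected probes carries most of the difference. Zhx2, a transcriptional repressor, differed by 0.69 ± 0.14, Stard13, which switches off small GTPases, by 0.51 ± 0.11, Ino80e, a subunit of the INO80 chromatin remodelling complex, by 0.51 ± 0.11 and Kcne1l, an accessory potassium channel subunit, by 0.47 ± 0.10. Tfb1m, which methylates the ribosomal RNA of mitochondria, differed by 1.27 ± 0.28 but was detected in only 1 of 3 control males. Sh3bp1, Fmo5 and Snai2 were detected in all 3 small-litter males and in no control male. Against the lowest detected signal they were at least 1.32-fold (Sh3bp1), 1.41-fold (Fmo5) and 1.14-fold (Snai2) higher. Each bound compares the mean of the bright group with the dim group, where a dim value is raised to the lowest signal of any detected probe on its array.

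On the lower side were genes of ion flux, protein glycosylation, antigen processing and amino acid transport. Slc38a1, a glutamine transporter of neurons, was at 9.0, 9.05 and 8.80 in control males 1, 2 and 3 and at 8.34, 8.31 and 8.31 in the small-litter males, a difference of -0.63 ± 0.15. All 3 small-litter males had almost the same level here. Its other 3 probes gave -0.68 ± 0.21, -0.32 ± 0.17 and 0.21 ± 0.10. Tap2, a subunit of the pump that carries peptides to MHC class I molecules, was at 7.21, 7.37 and 7.32 in controls and 6.79, 6.78 and 6.66 in small-litter males (-0.56 ± 0.11). Man2b1, the lysosomal alpha-mannosidase, was at 9.23, 9.16 and 9.61 and 8.88, 8.56 and 8.42 (-0.71 ± 0.15), with -0.42 ± 0.12 for its other probe. Small-litter male 1 was the nearest to the controls for Man2b1, and the groups did not overlap.

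Kcnq3, part of the M-type potassium channel that damps repeated firing, was detected in all 3 controls (5.63, 5.50 and 5.51) and in no small-litter male (4.73, 4.89 and 5.04), so it was at least 1.41-fold lower. The same was true of Mob1b, a component of Hippo signalling, at least 1.24-fold lower, of Map3k6, a kinase of stress signalling, at least 1.16-fold lower, and of Selenov, a selenoprotein, at least 1.10-fold lower. Stt3a, a catalytic subunit of the oligosaccharyltransferase, differed by -0.47 ± 0.09. Arhgef11, which activates RhoA, was at 9.65, 9.76 and 9.71 in controls and 9.46, 8.93 and 8.92 in small-litter males (-0.61 ± 0.14), with small-litter male 1 much closer to the controls than the other 2. Aph1a, a subunit of gamma-secretase, differed by -0.56 ± 0.13, Arap3, which switches off GTPases of the Arf family, by -0.40 ± 0.09, Hivep3, a zinc finger transcription factor, by -0.49 ± 0.10 and Frmpd1, a scaffold protein, by -0.66 ± 0.15. The probe that stands for Bahcc1, a chromatin protein, was at -0.51 ± 0.11 while its other probe was at 0.49 ± 0.24, the opposite sign. For Cir1, a transcriptional corepressor, the value was -0.53 ± 0.13, and its other probes were at -0.35 ± 0.13 and 0.09 ± 0.17.

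Of these 30 genes, 24 were called by limma without small-litter male 1, where 4.89% of all features were. That count follows in part from their choice by p in the same males. Their sign cannot turn when 1 male is left out, since they were chosen for groups without overlap. Of the 30, 9 had other detected probes, 14 probes in all, of which 8 had the same sign and 3 an unadjusted p under 0.05. Of 141 genes given with values here, the sex-linked ones left out, 40 had other detected probes, 63 in all, and 42 of these had the sign of the brightest probe while 21 had the opposite one. Most genes below are thus known from 1 probe, and an opposite probe is given beside its gene. With small-litter male 1 alone against the controls, Tcirg1 was at 0.64, Mark4 at 0.65, Tap2 at -0.51 and Slc38a1 at -0.61, all close to the value over 3 males. Tmem176a was at 0.36, Arhgef11 at -0.25 and Cir1 at -0.25 in that comparison, each a smaller difference than over 3 males.

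**Figure D2:**
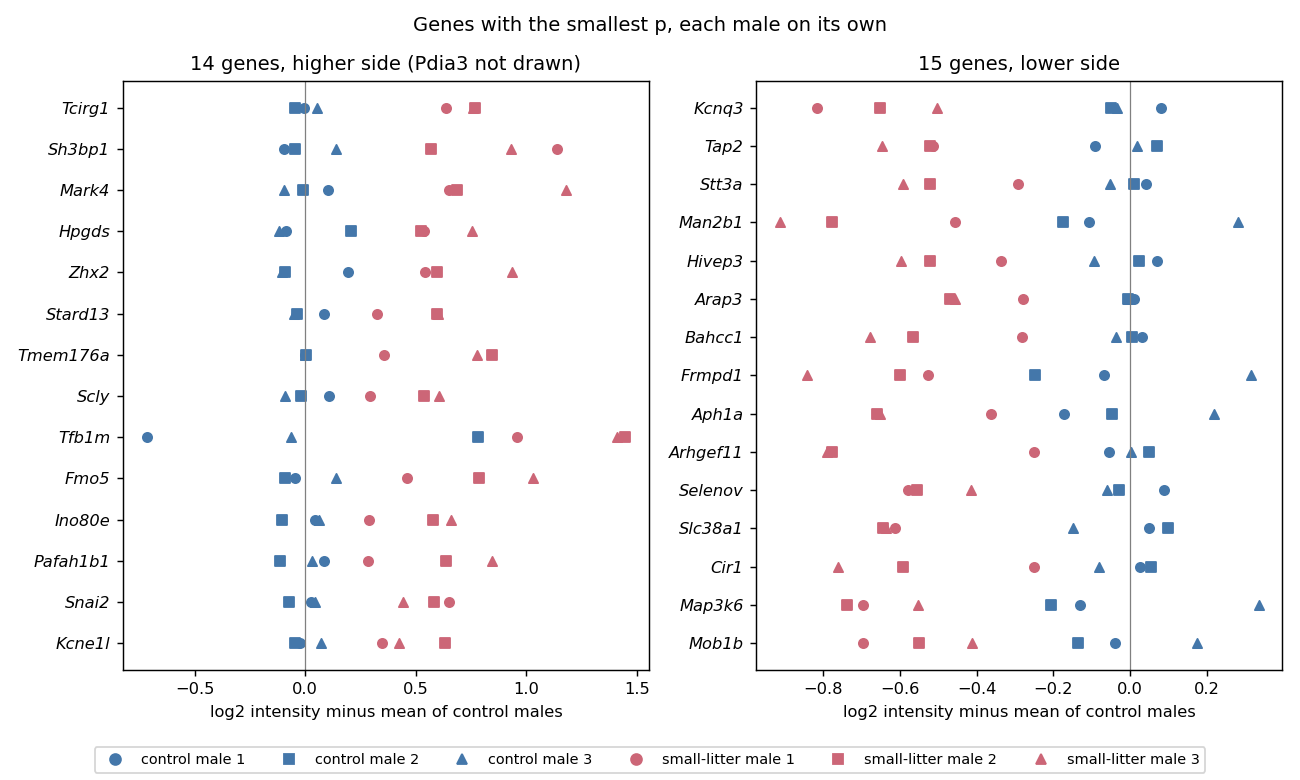
Log2 intensity of each of the 6 males minus the mean of the control males (horizontal axis) for the named genes with the smallest p among those without overlap, 14 on the higher side and 15 on the lower side. Control males are blue and small-litter males red, with a symbol for each mouse. Values below detection are drawn as measured. Pdia3, the 15th gene of the higher side, is not drawn because its range would hide the others. Small-litter male 1 is the red point nearest to the controls for genes such as Arhgef11 and Cir1, and lies with the other 2 for Tcirg1, Tap2 and Slc38a1.

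Genes switched on by glucocorticoids were mostly lower in small-litter males. Of 29 listed targets 27 were measured, and 22 were lower and 5 higher. An unadjusted p under 0.05 was reached by 8 on the lower side and 1 on the higher side, against 7.24% and 6.16% of all features, and none passed adjusted over all features. The groups did not overlap for 8 lower and 1 higher member, against 7.56% and 7.29% of all features. The median difference was -0.32, against -0.01 over all features. Relative to the control mean, the list's median was 0.01, -0.11 and 0.15 in control males 1, 2 and 3 and -0.14, -0.23 and -0.40 in small-litter males 1, 2 and 3. The 3 small-litter males were below the 3 controls, but control male 3 was the highest of all and small-litter male 1 differed little from control male 2. Without control male 3 the median was -0.13, and with small-litter male 1 alone it was -0.14. With the authors' values it was -0.15.

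Klf9, a transcription factor that mediates part of the neuronal response to glucocorticoids and thyroid hormone, was at 12.04, 11.63 and 11.54 in control males 1, 2 and 3 and at 11.36, 11.24 and 11.23 in the small-litter males (-0.47 ± 0.16). Control male 1 was the highest, and all 3 small-litter males lay below all 3 controls. Sgk1, a kinase that acts on ion channels and transporters, was at 11.99, 11.25 and 11.84 in the controls and 11.25, 11.09 and 10.77 in the small-litter males (-0.66 ± 0.26). The groups of Sgk1 only just separated, since control male 2 and small-litter male 1 had nearly the same level. Ddit4, an inhibitor of mTOR complex signalling, was at 8.82, 8.83 and 8.84 in the controls, with hardly any spread, and 8.66, 8.34 and 8.51 in the small-litter males (-0.33 ± 0.13). Arrdc2, an arrestin-domain protein, was at 5.74, 5.81 and 5.92 and 5.61, 5.25 and 4.64 (-0.66 ± 0.21), but in small-litter male 3 it was not detected, so that value lies in the background. Sesn1, a stress protein that restrains growth signalling, differed by -0.32 ± 0.13. Map3k6, given above, was detected in no small-litter male.

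For other targets single control males set the value. Fkbp5, a cochaperone that binds the glucocorticoid receptor, was at 6.70, 6.75 and 7.92 in the controls and 7.19, 6.44 and 6.0 in the small-litter males (-0.58 ± 0.32). Only control male 3 was high, small-litter male 1 lay above the other 2 controls, and without control male 3 the difference was -0.18. Plin4, a protein of lipid droplets, was at 6.08, 5.61 and 8.81 and 6.16, 6.02 and 5.21 (-1.03 ± 0.63), again with control male 3 alone far above the rest. Cdkn1a, the cell cycle inhibitor p21, was at 7.06, 6.59 and 8.14 and 6.29, 6.45 and 6.65 (-0.80 ± 0.34), and the metallothionein Mt2 differed by -0.41 ± 0.18 with overlapping groups. Not all members went the same way, since the clock gene Per1 was at 0.41 ± 0.22 and the small GTPase gene Rhob at 0.22 ± 0.09, both higher. Per1 was low in small-litter male 1 and high in the other 2. The receptor itself, Nr3c1, was at 6.93, 6.96 and 6.15 and 6.15, 6.46 and 6.38 (-0.35 ± 0.24), with control male 3 as low as the small-litter males. Less RNA per cell and fewer cells that express a gene cannot be told apart in whole tissue, for this list or for any other.

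The start regions of the glucocorticoid targets were searched for the receptor's binding motif, with motifs chosen after the values were seen. The sequences are from RefSeq (GRCm38.p6), 250 bases before to 50 after the gene start, for 22 of the 27 measured members and 27025 genes in all, and both strands were read. The full palindrome, AGAACA and its reverse complement TGTTCT with 3 bases between them, stood in 1 of the 22, Sgk1, and in 0.0111% of all genes. A shorter form that the full palindrome contains, ACA and TGTTC with 3 bases between them, stood in 3 of the 22, Map3k6, Mt1 and Sgk1, and in 1.12% of all genes. A match describes the letters and is not a measured binding site. The 2 regions below are shown because Sgk1 holds the full palindrome and Map3k6 has the smallest p of the list. Capitals mark the match, whose first base lies at -189 (Sgk1, chr10:21993640-21993939, plus strand) and -179 (Map3k6, chr4:133240568-133240867, plus strand) from the start site.
Sgk1: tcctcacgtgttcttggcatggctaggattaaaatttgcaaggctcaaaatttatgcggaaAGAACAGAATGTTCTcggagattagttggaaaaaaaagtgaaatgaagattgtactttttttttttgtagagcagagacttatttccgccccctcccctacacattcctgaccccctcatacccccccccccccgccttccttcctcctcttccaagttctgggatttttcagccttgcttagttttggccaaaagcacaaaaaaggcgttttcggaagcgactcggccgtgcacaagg
Map3k6: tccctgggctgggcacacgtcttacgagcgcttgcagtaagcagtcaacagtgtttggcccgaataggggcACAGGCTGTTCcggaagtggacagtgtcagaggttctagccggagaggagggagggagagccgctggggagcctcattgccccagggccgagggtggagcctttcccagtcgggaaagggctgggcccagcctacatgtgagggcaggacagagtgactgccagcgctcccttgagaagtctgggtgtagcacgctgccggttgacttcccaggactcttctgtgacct

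Enzymes of cholesterol and fatty acid synthesis were mostly higher in small-litter males. Of 33 listed genes 24 were measured, 18 higher and 6 lower, with a median of 0.13 against -0.01 over all features. The small-litter males lay above the controls without overlap for 8 members and below for 0, against 7.29% and 7.56% of all features. An unadjusted p under 0.05 was reached by 5 higher and 1 lower member (background 6.16% and 7.24%), and none passed adjusted over all features. Relative to the control mean, the list's median was 0.06, 0.02 and -0.11 in control males 1, 2 and 3 and 0.14, 0.15 and 0.09 in small-litter males 1, 2 and 3. Here small-litter male 1 was as high as the other 2, and with this male alone the median was 0.14. Without control male 3, the lowest, it was 0.07. When arrays were scaled by their medians the list's median was 0.01, but relative to all features it was 0.12, close to the 0.15 of the quantile normalization.

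By step of the pathway, 4 of 5 measured mevalonate pathway genes were higher (median 0.31), 8 of 10 of the sterol branch (median 0.18) and 6 of 9 of fatty acid synthesis (median 0.06). In the mevalonate pathway, Fdps, which makes farnesyl diphosphate, was at 11.04, 11.06 and 10.96 in control males 1, 2 and 3 and at 11.26, 11.34 and 11.43 in the small-litter males (0.32 ± 0.09). The controls agreed closely and all 3 small-litter males were above them. Idi1, the isomerase before Fdps, was at 6.84, 6.44 and 6.10 and 6.99, 6.95 and 6.96 (0.51 ± 0.18), and here the controls ranged widely while the small-litter males did not, with control male 1 just below them. Dhcr7, which completes cholesterol from its immediate precursor, was at 7.81, 7.89 and 7.81 in the controls and 7.99, 8.50 and 8.62 in the small-litter males (0.53 ± 0.15). Small-litter male 1 was only a little above the controls for Dhcr7, and alone it gave 0.15.

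Lss, which closes the sterol ring system, was at 6.34, 6.27 and 6.09 in the controls and 6.65, 6.50 and 6.57 in the small-litter males (0.34 ± 0.15), with small-litter male 1 the highest of all. Sqle, squalene epoxidase, differed by 0.25 ± 0.12 and Cyp51, lanosterol demethylase, by 0.26 ± 0.13, both without overlap between groups. Among fatty acid genes, the desaturase Fads2 was at 8.64, 8.60 and 8.51 and 8.85, 8.91 and 8.98 (0.33 ± 0.08), a small difference but with close agreement within each group. Acacb, the acetyl-CoA carboxylase of the mitochondrial surface, was on the other side at -0.35 ± 0.16. Acacb was low mainly in small-litter male 3. Without small-litter male 1, the limma fit called 3 genes of the list, all higher, where 2.15% of all features were called higher.

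**Figure D3:**
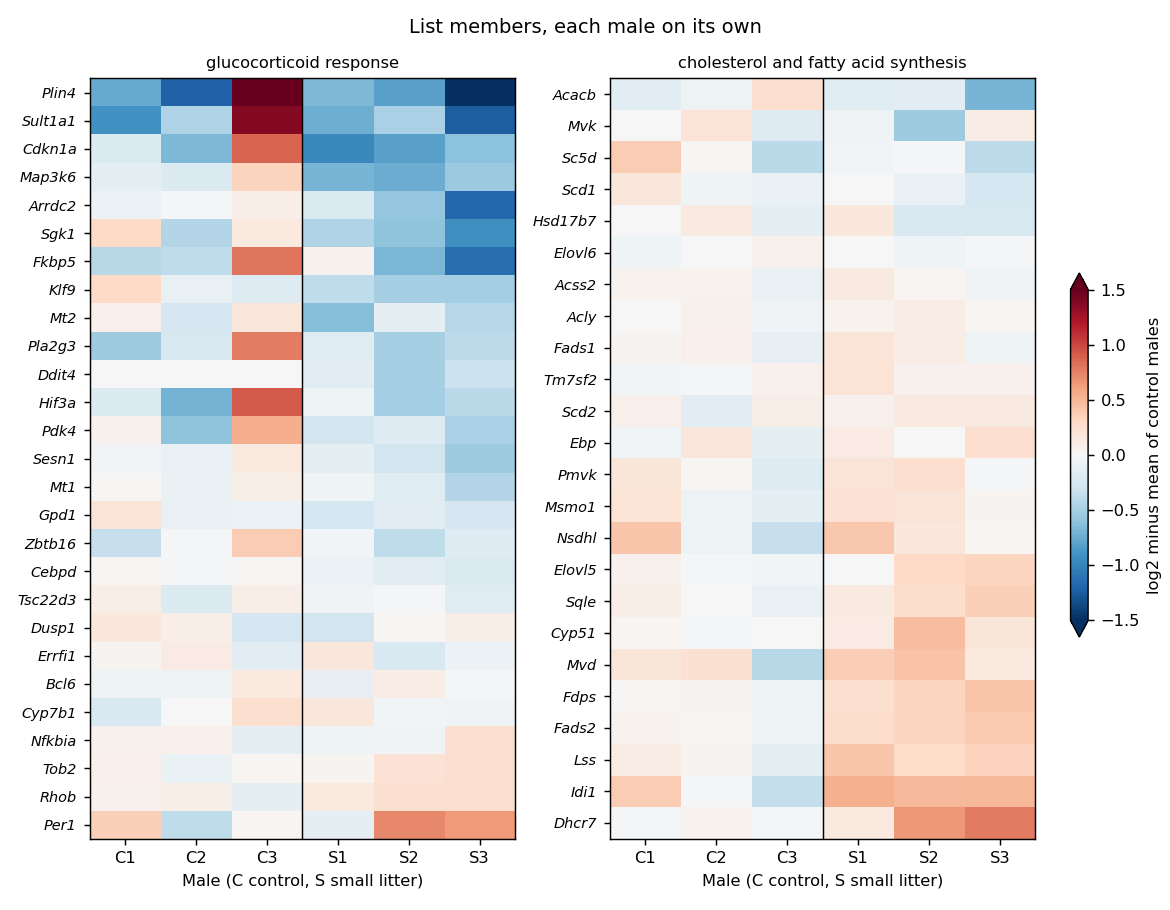
Log2 intensity of each male minus the mean of the control males (colour scale in log2 units, blue lower, red higher) for the 27 measured glucocorticoid targets and the 24 measured genes of cholesterol and fatty acid synthesis, ordered by the group difference, with control males C1 to C3 left of the line and small-litter males S1 to S3 right of it. In the left panel Plin4, Cdkn1a and Fkbp5 are high in control male 3 alone, and in the right panel Fdps, Fads2, Lss and Idi1 are higher in all 3 small-litter males.

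The start regions of 19 of the 24 measured lipid synthesis genes were available. The sterol element TCACCCCAC was in 0 of the 19 and in 0.614% of all genes, which says only that these letters are not in this window. The box CCAAT stood in 17 of the 19, against 41.1% of all genes and 13 of 22 glucocorticoid targets. The E-box CACGTG stood in 4 of the 19 and 5 of the 22, against 8.09% of all genes. The regions of Dhcr7 (chr7:143829964-143830263, plus strand) and Idi1 (chr13:8885356-8885655, plus strand) are shown because these 2 had the largest differences of the list and hold 2 boxes each. Capitals mark CCAAT or, on the other strand, ATTGG, with first bases at -85 and -49 in Dhcr7 and at -45 and -14 in Idi1.
Dhcr7: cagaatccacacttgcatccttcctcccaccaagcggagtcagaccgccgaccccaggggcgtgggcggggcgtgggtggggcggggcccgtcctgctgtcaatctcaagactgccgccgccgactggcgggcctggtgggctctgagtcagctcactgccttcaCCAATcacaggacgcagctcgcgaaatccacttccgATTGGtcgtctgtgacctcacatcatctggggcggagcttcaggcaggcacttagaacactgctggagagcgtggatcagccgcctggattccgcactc
Idi1: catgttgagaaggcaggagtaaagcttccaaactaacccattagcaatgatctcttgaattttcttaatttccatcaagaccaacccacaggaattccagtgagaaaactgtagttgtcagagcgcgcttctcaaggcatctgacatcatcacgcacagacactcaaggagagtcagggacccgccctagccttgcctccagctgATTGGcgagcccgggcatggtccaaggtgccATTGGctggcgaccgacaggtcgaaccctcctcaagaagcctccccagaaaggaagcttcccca

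Genes that sense, move and remove sterols leaned the same way, but the males overlapped. Relative to the control mean, the list's median was 0.10, 0.07 and -0.10 in control males 1, 2 and 3. It was 0.003, 0.19 and 0.11 in small-litter males 1, 2 and 3. Small-litter male 3 was thus level with control male 1, and without control male 3 the median difference was 0.03. Of 15 measured, 9 were higher, 3 of them with an unadjusted p under 0.05 (background 6.16%), and 6 were lower with 0. Abcg1, a pump that exports cholesterol, was at 8.10, 7.76 and 8.13 in control males 1, 2 and 3 and 8.21, 8.65 and 8.79 in the small-litter males (0.55 ± 0.15). Cyp46a1, the neuronal enzyme that converts cholesterol to the hydroxylated form that leaves the brain, was at 8.15, 8.10 and 7.90 and 8.0, 8.91 and 9.17 (0.64 ± 0.23). Nr1h3, the liver X receptor alpha, which senses oxysterols, was at 5.49, 5.82 and 5.87 and 5.70, 6.48 and 6.46 (0.49 ± 0.19). For Cyp46a1 and Nr1h3 small-litter male 1 lay within the controls, and alone it gave -0.05 and -0.03. The list's median was 0.09 with quantile normalization and -0.04 with median scaling, or 0.10 and 0.08 relative to all features. Srebf2, the transcription factor that drives cholesterol synthesis genes, was at 0.12 ± 0.11 with overlapping groups.

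Subunits of the respiratory chain and ATP synthase were slightly higher. Of 73 measured, 54 were higher, with a median of 0.07, and 10 were above the controls without overlap and 0 below (background 7.29% and 7.56%). The sign of the list's median turned with the scaling, to -0.03 with median scaling, though relative to all features it was 0.08 and 0.09. By complex, 28 of 34 subunits of complex I, 1 of 3 of complex II, 5 of 7 of complex III, 10 of 13 of complex IV and 10 of 16 of ATP synthase were higher. An unadjusted p under 0.05 was reached by 5 higher and 0 lower (background 6.16% and 7.24%). Atp5md, a small subunit of ATP synthase, was at 7.98, 7.95 and 7.79 in the controls and 8.35, 8.64 and 8.99 in the small-litter males (0.76 ± 0.23). Cox7a2 of complex IV was at 9.09, 8.99 and 8.89 and 9.23, 9.27 and 9.32 (0.29 ± 0.10). In both, the 3 small-litter males were above the 3 controls and small-litter male 3 was the highest. Ndufa12 of complex I differed by 0.25 ± 0.09 and Ndufb9 by 0.42 ± 0.18, the last with overlap.

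Of 55 cytosolic ribosomal proteins 35 were higher, with a median of 0.03 that turned to -0.02 with median scaling. Without overlap between the groups, 8 were above the controls and 1 below (background 7.29% and 7.56%). An unadjusted p under 0.05 was reached by 2 higher, Rplp2 at 0.38 ± 0.12 and Rps24 at 0.19 ± 0.08 (its other probes -0.11 ± 0.13 and -0.14 ± 0.10), and by 2 lower, Rps15a at -0.35 ± 0.15 and Rpl19 at -0.21 ± 0.09. Of all features 6.16% were higher and 7.24% lower at this p.

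**Figure D4:**
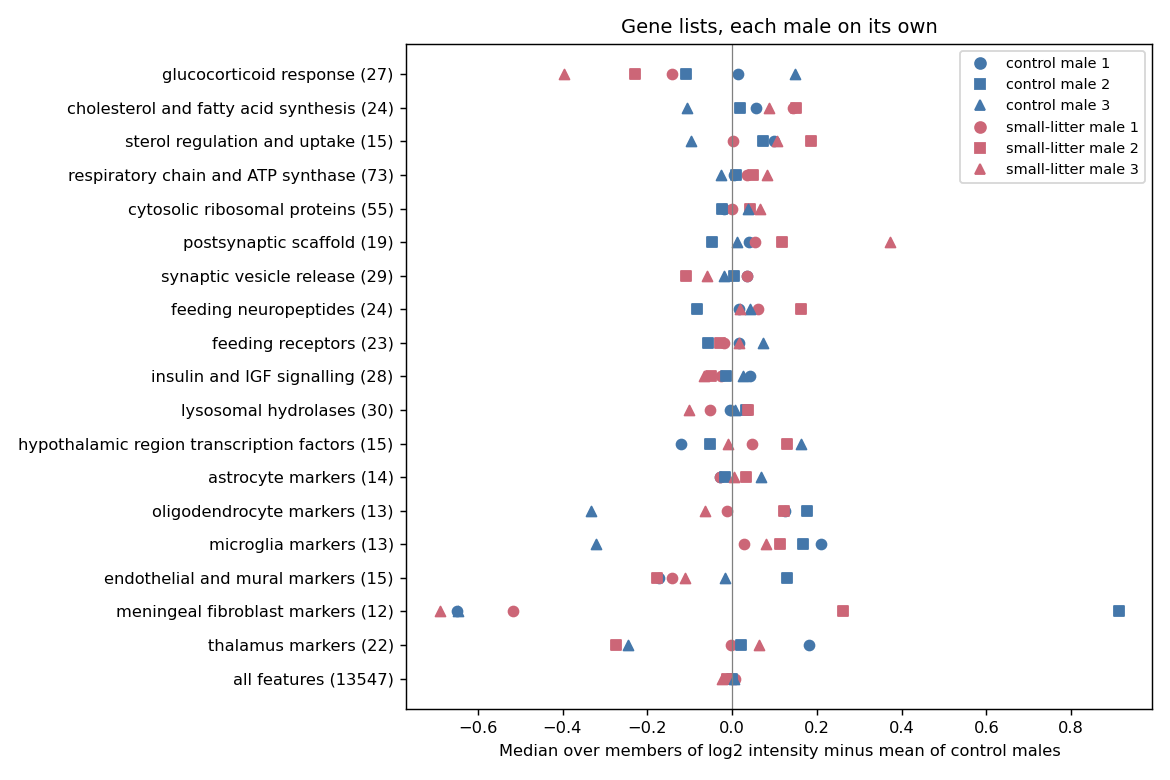
Median over the members of each gene list of the log2 intensity minus the mean of the control males (horizontal axis), with a point for each male and the number of measured members in brackets. The glucocorticoid list spreads from -0.40 in small-litter male 3 to 0.15 in control male 3, the lipid synthesis list separates the groups within a narrow range, and the meningeal list is highest in control male 2 at 0.91.

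Genes of the postsynaptic scaffold, the protein mesh that holds glutamate receptors at the synapse, were higher for 14 of 19 measured members, with a median of 0.18. An unadjusted p under 0.05 was reached by 4 higher and 2 lower members (background 6.16% and 7.24%). The list's median was 0.04, -0.05 and 0.01 in control males 1, 2 and 3 and 0.06, 0.12 and 0.37 in small-litter males 1, 2 and 3, so small-litter male 3 was far above the others. With small-litter male 1 alone it was 0.05, and with median scaling 0.04 (0.15 relative to all features). Dlg4, the central scaffold PSD-95, was at 8.73, 8.61 and 8.61 in the controls and 8.92, 9.04 and 9.38 in the small-litter males (0.46 ± 0.12). Its paralogue Dlg2 differed by 0.32 ± 0.13, Shank3, which links receptors to actin, by 0.42 ± 0.17, and Nrgn, a postsynaptic calmodulin-binding protein, by 0.43 ± 0.18. Nrgn was not high in small-litter male 1, which alone gave -0.02. On the lower side were the scaffold gene Homer2 at -0.33 ± 0.14 and Dlgap1, which binds Dlg4, at -0.29 ± 0.11. Of the other 5 probes of Dlgap1, 1 was on the higher side at 0.22 ± 0.10.

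Of 15 glutamate receptor subunits, 8 were higher. Grik5, a kainate receptor subunit, was at 7.27, 7.31 and 7.41 and 7.59, 7.80 and 8.09 (0.50 ± 0.12), and Gria4, an AMPA receptor subunit, was at 5.87, 5.76 and 5.50 and 5.90, 6.45 and 6.26 (0.50 ± 0.15). The groups did not overlap for either, though small-litter male 1 was just above control male 1 for Gria4. Cacng7, an auxiliary subunit of AMPA receptors, differed by 0.58 ± 0.19 but comes from another list, that of sodium and calcium channels. Of the 23 members of that list 10 were higher and 13 lower, with a median of -0.05. An unadjusted p under 0.05 was reached there by 1 higher and 0 lower members (background 6.16% and 7.24%). Among 8 GABA receptor subunits 4 were higher and 4 lower, and the 1 with an unadjusted p under 0.05 was Gabrb2, at 7.94, 7.86 and 7.68 in controls and 7.44, 7.44 and 7.42 in small-litter males (-0.39 ± 0.16).

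Of 29 measured genes of synaptic vesicle release 13 were higher (44.8%, against 47.6% of all features) and 16 lower, and an unadjusted p under 0.05 was reached by 3 and 5 (background 6.16% and 7.24%). The list's median was -0.06, but 0.03 with small-litter male 1 alone and 0.01 without small-litter male 2. Cplx2, a complexin that clamps release, was at 8.55, 8.45 and 8.54 in the controls and 8.23, 7.75 and 8.11 in the small-litter males (-0.48 ± 0.16). Vamp2, the vesicle SNARE, was at 12.45, 12.47 and 12.56 and 12.61, 11.88 and 11.73 (-0.42 ± 0.17). Vamp2 was highest of all in small-litter male 1, which alone gave 0.11, so the difference comes from the other 2. Sv2b, a vesicle glycoprotein, differed by -0.46 ± 0.17 and Pclo, a scaffold of the active zone, by -0.24 ± 0.10, while the other probes of Pclo were at 0.00 ± 0.18 and 0.19 ± 0.15. Of 51 potassium channel subunits 22 were higher and 29 lower, with 5 and 4 at an unadjusted p under 0.05 (background 6.16% and 7.24%). Besides Kcnq3 these included Kcnmb4, a subunit of calcium-activated channels, at 0.53 ± 0.16. Another was Kcnh5, an ether-a-go-go channel, at -0.37 ± 0.12 but detected in 1 of 3 small-litter males. Kcnh6 was detected in 2 small-litter males and in no control, at least 1.18-fold higher.

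The peptides that govern feeding showed no common direction. Of 32 listed 24 were measured, 13 higher and 11 lower, with a median of 0.03, and 2 higher and 0 lower members reached an unadjusted p under 0.05 (background 6.16% and 7.24%). Vgf, whose peptides act on energy balance, was at 10.99, 10.77 and 11.10 in control males 1, 2 and 3 and 11.12, 11.53 and 12.13 in the small-litter males (0.64 ± 0.21), and its other probe was at 0.68 ± 0.24. Small-litter male 1 was barely above control male 3, and alone it gave 0.17. Npvf, the precursor of gonadotropin-inhibitory peptides, differed by 0.48 ± 0.16 but was detected in only 1 of 3 controls. The granin Chga was at 0.26 ± 0.10 and the proconvertase inhibitor Pcsk1n at 0.30 ± 0.11, both without overlap between the groups. Both are from a list of neurosecretory genes, of which 21 were measured, 8 higher and 13 lower, with a median of -0.02. In that list 3 higher and 0 lower members reached an unadjusted p under 0.05 (background 6.16% and 7.24%).

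The values of the main arcuate peptides turned on control male 3. Npy was at 9.30, 9.23 and 10.93 in the controls and 9.16, 9.34 and 8.91 in the small-litter males (-0.68 ± 0.35). A single control was high and the other 5 males were alike. Pomc was at 6.79, 6.71 and 5.78 and 6.58, 6.79 and 6.82 (0.31 ± 0.27), where control male 3 was the 1 low array. Cartpt, a peptide of satiety, was at 11.60, 11.82 and 11.11 and 11.55, 11.65 and 11.77 (0.15 ± 0.19), again lowest in control male 3. Leaving that male out gave -0.12 for Npy, -0.02 for Pomc and -0.05 for Cartpt. The same male had the highest vasopressin signal, with Avp at 12.06, 11.70 and 13.45 in the controls and 12.25, 12.03 and 11.71 in the small-litter males (-0.41 ± 0.39), and the highest oxytocin signal, with Oxt at 0.12 ± 0.43. Trh, thyrotropin-releasing hormone, was at -0.13 ± 0.26 and Hcrt, the orexin precursor, at 0.12 ± 0.15. Pmch, the melanin-concentrating hormone precursor, was at 0.02 ± 0.10 by its brightest probe and at 0.42 ± 0.16 by its other one. By their brightest probes none of these peptides separated the groups, and Agrp, Lepr and Crh were not analysed here.

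Of 31 receptors for feeding signals 23 were measured, 10 higher and 13 lower, with 1 and 2 at an unadjusted p under 0.05 (background 6.16% and 7.24%). Ramp2, which makes the calcitonin receptor family sense adrenomedullin, was at 9.92, 9.94 and 10.20 and 9.90, 9.47 and 9.36 (-0.44 ± 0.15). The neuropeptide Y receptor genes Npy5r and Npy2r were at -0.30 ± 0.12 and -0.27 ± 0.14, with the other probe of Npy5r at 0.11 ± 0.11. Brs3, a receptor of the bombesin family that acts on energy balance, was at 0.41 ± 0.18 but was detected in 1 of 3 controls. Mc4r, the melanocortin receptor through which Pomc peptides restrain feeding, was detected in 1 of 3 males of each group, and its difference was 0.00 ± 0.23.

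Of 28 measured insulin signalling genes 11 were higher (39.3%, against 47.6% of all features) and 17 lower. An unadjusted p under 0.05 was reached by 2 higher and 4 lower members (background 6.16% and 7.24%). Irs2, the adaptor that relays the insulin and IGF signal in the hypothalamus, was at 8.91, 8.57 and 8.76 in control males 1, 2 and 3 and 8.45, 7.64 and 7.59 in the small-litter males (-0.86 ± 0.24). All 3 small-litter males were below the controls, but small-litter male 1 was close to control male 2 and alone gave -0.29. Gsk3b, a kinase that insulin inhibits, was at 10.03, 9.89 and 10.02 and 9.67, 9.58 and 9.63 (-0.35 ± 0.12). Its paralogue Gsk3a went the other way by a larger difference, with overlap, and was 1 of the 2 higher members counted above. Pik3r1, the regulatory subunit of phosphoinositide 3-kinase, differed by -0.34 ± 0.12. Mtor, the growth kinase, was higher at 8.78, 8.97 and 8.88 and 9.07, 9.25 and 9.40 (0.36 ± 0.12), but its other probe was at -0.36 ± 0.27. The receptor gene Insr was at -0.11 ± 0.10 with overlap.

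Of 16 genes of leptin and adiponectin signalling 7 were higher and 9 lower, with a median of -0.04. Of these, 3 higher and 0 lower members had an unadjusted p under 0.05 (background 6.16% and 7.24%). Prkaa1, a catalytic subunit of the energy sensor AMPK, was at 5.56, 5.37 and 5.25 and 5.78, 5.78 and 5.65 (0.34 ± 0.11). Adipor1, an adiponectin receptor, differed by 0.31 ± 0.11 and Socs2, an inhibitor of cytokine signalling, by 0.44 ± 0.19. The other catalytic subunit gene, Prkaa2, and the other adiponectin receptor gene, Adipor2, were on the lower side, both with overlap. Socs3, the inhibitor that leptin induces, was at 5.83, 5.74 and 5.57 and 5.48, 5.44 and 5.47 (-0.25 ± 0.11), a small difference without overlap.

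In the endoplasmic reticulum, 12 of 19 chaperone and stress genes were higher, where 47.6% of all features were. An unadjusted p under 0.05 was reached by 3 higher members, Pdia3 among them, and 2 lower ones (background 6.16% and 7.24%). The groups did not overlap for 3 higher and 3 lower members (background 7.29% and 7.56%). The list's median was 0.04, and -0.09 with median scaling, or 0.05 and 0.03 relative to all features. Calr, the calcium-binding chaperone calreticulin, was at 9.29, 9.69 and 9.35 in the controls and 9.81, 10.11 and 10.86 in the small-litter males (0.82 ± 0.23), with small-litter male 3 the highest. Creld2, a stress-induced protein, was at 0.48 ± 0.20, and Syvn1, a ubiquitin ligase that clears misfolded proteins, at -0.26 ± 0.10. Among 27 genes of N-glycosylation 16 were higher, but those with an unadjusted p under 0.05 were 1 higher and 4 lower (background 6.16% and 7.24%). Besides Stt3a, the lower genes were Dpagt1, which starts the glycan, at -0.27 ± 0.10, Rpn2, an oligosaccharyltransferase subunit, at -0.23 ± 0.10 and Man2a2, a Golgi mannosidase, at -0.28 ± 0.11. The other 3 probes of Man2a2 were on the higher side, at 0.37 ± 0.17, 0.07 ± 0.20 and 0.18 ± 0.21.

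Of 20 lysosomal hydrolases 6 were higher and 14 lower, with 2 and 4 at an unadjusted p under 0.05 (background 6.16% and 7.24%). Of 10 cathepsins, the proteases of lysosomes, 7 were higher and 3 lower, with 1 and 0, where 47.6% of all features were higher. Naglu, which degrades heparan sulphate, was at 5.80, 6.26 and 6.64 and 5.52, 5.86 and 5.55 (-0.59 ± 0.19), with overlap between small-litter male 2 and control male 1. Dnase2a, which degrades DNA in lysosomes, was at -0.52 ± 0.17 but detected in 1 of 3 small-litter males, and Gusb, beta-glucuronidase, was on the higher side at 7.85, 7.90 and 7.71 and 8.02, 8.54 and 8.26 (0.45 ± 0.15). The other 3 probes of Gusb gave -0.23 ± 0.11, 0.13 ± 0.13 and 0.05 ± 0.18.

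Among 16 serotonin and dopamine genes, 0 higher and 2 lower members reached an unadjusted p under 0.05 (background 6.16% and 7.24%). Tph2, the enzyme that makes serotonin in neurons, was detected in all 3 controls (5.12, 5.56 and 5.61) and in no small-litter male (4.95, 4.96 and 4.78), at least 1.30-fold lower. Htr4, a serotonin receptor, was detected in 2 controls and in no small-litter male, at least 1.15-fold lower. Both signals lay close to the background. Of 15 immediate early genes, which neurons switch on when active, 7 were higher and 8 lower, with a median of -0.06, and -0.16 with small-litter male 1 alone. The 2 with an unadjusted p under 0.05 were both higher (background 6.16%), Arc at 6.88, 6.92 and 6.39 and 7.01, 7.45 and 7.30 (0.52 ± 0.17) and Jund at 0.58 ± 0.19.

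Markers of the other cell types in the tissue were compared in the same way. The median difference was -0.01 for 14 astrocyte markers, -0.03 for 13 oligodendrocyte markers and 0.10 for 13 microglia markers. Control male 3 had the lowest oligodendrocyte and microglia medians, at -0.33 and -0.32 relative to the control mean. Of 15 endothelial and mural markers 11 were lower, with a median of -0.14, and 0 higher and 2 lower had an unadjusted p under 0.05 (background 6.16% and 7.24%). Relative to the control mean, their median was -0.17, 0.13 and -0.02 in the controls and -0.14, -0.18 and -0.11 in the small-litter males. Control male 1 was thus as low as the small-litter males, and without control male 2 the median difference was -0.07. Rgs5, a marker of pericytes, was at 8.71, 8.63 and 8.61 in the controls and 8.08, 8.10 and 8.41 in the small-litter males (-0.45 ± 0.15), and Vwf, the von Willebrand factor gene of endothelium, was at -0.77 ± 0.30 with overlap. Of 12 meningeal markers 10 were lower (median -0.33), but without control male 2 the median turned to 0.21. The meningeal gene Slc6a13, a GABA transporter, was at 6.05, 8.27 and 5.98 and 5.96, 6.88 and 5.69, high in control male 2 and next in small-litter male 2.

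In the ependymal and tanycyte list, Dynlrb2, a dynein light chain of motile cilia, was at 7.46, 7.46 and 7.59 and 7.84, 8.11 and 7.92 (0.45 ± 0.11), and Nes, the intermediate filament nestin, was at 5.36, 5.41 and 5.41 and 5.66, 5.78 and 6.01 (0.42 ± 0.12). Both were higher in all 3 small-litter males, while the list of 10 had a median of 0.06. Of 8 oligodendrocyte precursor markers 5 were higher and 3 lower, with a median of 0.03. Among them C1ql1 differed by 0.68 ± 0.26 and Gpr17 by 0.49 ± 0.22, each with overlap. Of 8 choroid plexus markers 5 were lower, with a median of -0.16. Of 5 measured pituitary markers 4 were higher, with differences from -1.03 to 0.51, and 3 were detected on all 6 male arrays. Their median of 0.26 was the value of Chga, and another member was Pomc, whose difference turned on control male 3. Thalamus markers, which a wider dissection would carry, had a median of -0.04 over 22 genes, with 0.18, 0.02 and -0.25 in the 3 controls and 0.00, -0.27 and 0.06 in the 3 small-litter males. The highest and the lowest of these 6 values belonged to control male 1 and small-litter male 2. Of 15 hypothalamic transcription factors 0 reached an unadjusted p under 0.05 and the groups overlapped for all 15. What part the cell makeup plays in the differences above was not tested.

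Whether the difference in males departed from that in females was tested as an interaction in the same fit. No feature passed at an adjusted p under 0.05 by limma (0% of 13547), the smallest adjusted p was 0.404, and 1321 features had an unadjusted p under 0.05 (9.75%). In the female comparison 453 features had an unadjusted p under 0.05 (3.34%), against 1816 (13.4%) in the male comparison. The male and female comparisons share no arrays, but both counts use a spread pooled over the sexes. With the male arrays fitted alone, 1332 features had an unadjusted p under 0.05 by limma. A fit of the females alone was not among the alternatives. The counts therefore do not show that the sexes responded differently. Of the 30 genes described first, all 30 had an interaction with an unadjusted p under 0.05, which follows in part from their choice by their male values. Their differences in females lay between -0.28 and 0.38, and 20 of them had the opposite sign there. In females Tcirg1 differed by 0.08, Mark4 by -0.09, Tap2 by -0.01 and Slc38a1 by 0.19.

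The genes with the smallest interaction p were in part those with the smallest p in males. Where the male difference was above the female one, Zfp329, a zinc finger gene, was detected in 2 small-litter males and in no control male, at least 1.12-fold higher, but its other probe was on the lower side in males at -0.36 ± 0.14. Elfn1, a synaptic adhesion protein that recruits glutamate receptors, was at 0.47 and -0.34 (interaction 0.81 ± 0.17). Adat1, which edits transfer RNA, was at 0.61 and -0.31, although its other probe was at 0.16 ± 0.17 in males. On the other side were Mob1b, at least 1.24-fold lower in small-litter males and at 0.38 in females, Frmpd1, at -0.66 and 0.32, and the prostaglandin transporter gene Slco2a1, at -0.43 and 0.29, which was detected in 2 of 3 small-litter males. Lbp, Zbtb22 and Intu owed their place to the females, with male differences of 0.31, -0.16 and -0.17. The glucocorticoid list had a median of 0.09 in females against -0.32 in males, and the lipid synthesis list 0.02 against 0.13. The respiratory chain list leaned the same way in both sexes. Of its 73 members 54 were higher in males and 51 in females, with medians of 0.07 and 0.04. Of the glucocorticoid list, 7 of 27 members had an interaction with an unadjusted p under 0.05, where 9.75% of all features did. Of the respiratory chain list 2 of 73 did. Without small-litter male 1 the interaction was called for 190 features by limma at an adjusted p under 0.05.

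**Figure D5:**
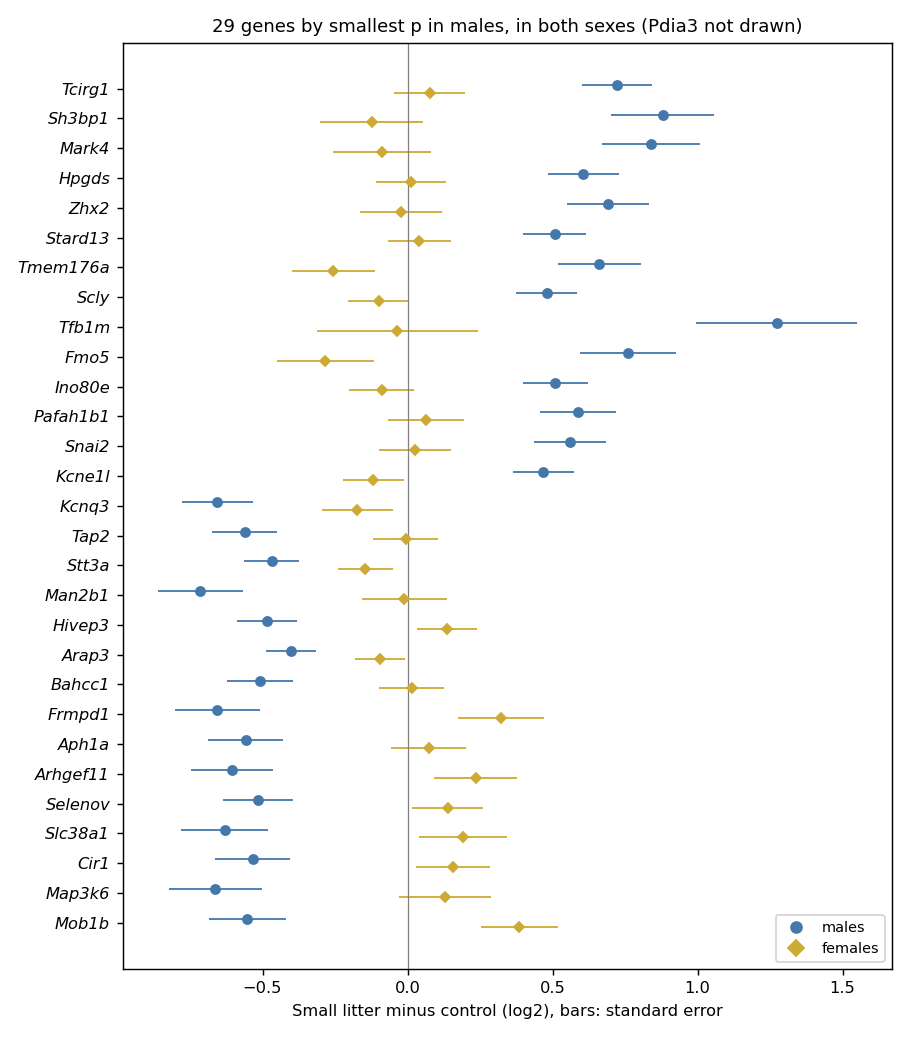
Difference between small-litter and control mice (horizontal axis, log2, bars give the standard error, n = 3 per group) in males (circles) and females (diamonds) for 29 of the 30 named genes with the smallest p in males among those without overlap, with Pdia3 left out because of its range. The female values lie between -0.28 and 0.38, and 20 of the 30 genes, Pdia3 included, have the opposite sign in the sexes.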

How the data were processed

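The deposited table of the authors holds, for each of 45281 probes and each array, a mean bead intensity that was neither background-subtracted nor normalized and a detection p-value. The authors also deposited log2 values for 20791 probes, and per the submitters' processing notes they were made with lumi with settings not stated there. By their values these were quantile-normalized without background subtraction, and they served as an alternative.

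All 12 arrays were normalized together with neqc in limma 3.58.1 (R 4.3.3), which corrects the background by normexp, taking the negative controls' mean and spread from the detection p-values, adds 16 and equalizes the quantiles. Of the probes, 19704 had a detection p under 0.01 in 3 or more of the 12 arrays and were kept, and the brightest probe stood for a gene, leaving 13547 features (10912 named). Genes were named through the platform's annotation table. Group means were fitted by lmFit and moderated by eBayes, with 8 residual and 4.84 prior degrees of freedom, and 2-sided p-values were adjusted by Benjamini-Hochberg over all features. The fit was tested on simulated data.

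The males, gene lists and rule for named genes were chosen with earlier results of these data known. The rule took the 15 genes with the smallest p in each direction among those without overlap, up to 4 of each list, 18 central genes where measured, 5 sex-linked genes and 5 genes in each direction of the interaction. Some items are not reported here. Sgk1, Ddit4, Cdkn1a, Plin4, Mt2, Rhob, Lss, Sqle, Cyp51, Acacb, Shank3, Homer2 and Maged1 stand outside the rule and were named after their values were seen. The same holds for Prkaa2, Adipor2 and Gsk3a, which are named without values.

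The alternatives were median scaling, an offset of 50 or no background correction, the authors' values, other detection filters, every probe on its own, a fit of the males alone, array weights, a trended robust eBayes, a replicate block, and leaving out each array or small-litter males 2 and 3 together.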

Additional observations from a re-analysis of the deposited data

How the results depend on the processing

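With 3 arrays in a group, 1 array can decide a value. The adjusted p counts were 0 under each alternative that keeps all arrays. Over leaving out each array in turn, the calls in males ranged from 0 to 662 (without small-litter male 1) and those of the interaction from 0 to 190, and features at an unadjusted p under 0.05 ranged from 1004 to 3025 in males and from 918 to 2463 for the interaction. These latter counts were 3491 and 2819 with no detection filter, 2848 and 2396 with array weights, and 412 and 465 without small-litter males 2 and 3; fewer samples lie behind the last. The glucocorticoid median was -0.1495 with the authors' values, -0.1497 with no background correction and -0.1412 without small-litter males 2 and 3, and between -0.3271 and -0.132 when each array was left out. The respiratory chain median was 0.03554 without small-litter males 2 and 3 and lay between 0.0443 and 0.09247 when each array was left out, and the scaffold median was 0.055 without these 2 males. Median scaling gave medians of 0.006559 for lipid synthesis, 0.03815 for the scaffold and -0.02545 for the respiratory chain, along with the shift of all features.

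Of 145 genes, 17 changed sign under some setting. With median scaling Hcrt was at -0.0134, Kdm5d at -0.04556, Oxt at -0.02359 and Mc4r at -0.03014. Array weights gave 0.04134 for Trh and -0.2151 for Mc4r. Without small-litter males 2 and 3 the values were -0.05499 for Cyp46a1, -0.03036 for Nr1h3, -0.02233 for Nrgn, 0.1138 for Vamp2, -0.1344 for Per1, 0.06662 for Fkbp5, 0.0231 for Insr, 0.08899 for Trh and -0.1346 for Pmch. When each array was left out, Pomc ranged from -0.01861 to 0.4889, Avp from -0.7609 to 0.1142, Slc6a13 from -0.983 to 0.1616, Cartpt from -0.05314 to 0.3011, Trh from -0.3901 to 0.1145, Oxt from -0.3206 to 0.5782, Pmch from -0.04397 to 0.0957, Mc4r from -0.217 to 0.2208 and Kdm5d from -0.07673 to 0.1416. The cause was not tested for any of these.

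No pairing of the samples by replicate number was seen, although correlations from so few males cannot exclude one. Deviations from the group means correlated at -0.0421, -0.00349 and -0.0561 over features between males of the same number. With the replicate number as a block, 1709 features had an unadjusted p under 0.05 in males, against 1816 without it, 1262 for the interaction, against 1321, and 0 passed adjusted in either.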

Other observations

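Several groups of genes not described above also differed between males, none past the threshold adjusted over all features. Of 22 measured imprinted genes, which are expressed from a single parental copy, 16 were higher, 3 of them and 0 of the lower ones with an unadjusted p under 0.05 (background 6.16% and 7.24%). Begain, whose protein binds Dlg4 at synapses, was at 6.44, 6.41 and 6.53 in control males 1, 2 and 3 and 6.64, 7.15 and 7.76 in small-litter males 1, 2 and 3 (0.72 ± 0.20). Small-litter male 3 was far above the others. Nnat, neuronatin, differed by 0.38 ± 0.16 and Nap1l5 by 0.29 ± 0.11, both with overlap between the groups. The list's median was 0.05, and with small-litter male 1 alone it was -0.04.

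Of 23 microtubule regulators 17 were higher. The brightest probe of Mark2, the paralogue of Mark4, was at 10.98, 10.78 and 10.89 in the controls and 10.74, 10.25 and 10.39 in the small-litter males (-0.42 ± 0.12), but its other probe was on the higher side at 0.71 ± 0.21. Arhgap1, which switches off Cdc42, was at 9.45, 9.52 and 9.57 and 9.23, 9.08 and 8.99 (-0.41 ± 0.10). In the prostaglandin list, Ptges3, a cochaperone that also makes prostaglandin E, was at 0.38 ± 0.12 and Tbxas1, thromboxane synthase, at -0.61 ± 0.26. Tbxas1 was detected in 2 control and 1 small-litter male, and its other probe was at 0.17 ± 0.14. Besides Tap2, the interferon regulatory factor gene Irf1 was lower at -0.28 ± 0.11, with overlap, and its other 3 probes were at 0.26 ± 0.15, -0.11 ± 0.16 and -0.04 ± 0.15.

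Single probes had raw intensities that ranged more than 8-fold among the 6 males. The probe of Pdia3, a disulphide isomerase that folds glycoproteins together with calreticulin, had a raw intensity of 69 and 70 in control males 1 and 2, 1414 in control male 3, and 3183, 3665 and 1285 in small-litter males 1, 2 and 3. In the 6 females it was between 3573 and 4943. Control males 1 and 2 were thus near the background and all other arrays well above it. After normalization Pdia3 was at 10.27 in control male 3 and 10.51 in small-litter male 3, the reverse of their raw order, and its log2 difference was 5.15 ± 1.17. The probe of Maged1, a regulator of neuronal signalling, was at 68 in control male 1 and between 6333 and 7887 in the other 5 males, so 1 control alone was low (3.0 ± 1.60). An unnamed probe, ILMN_1247996, was at 11290, 8441 and 7017 in the controls, 7731 in small-litter male 1, and 1647 and 913 in small-litter males 2 and 3, with females between 7151 and 13333. Its log2 difference was -1.82 ± 0.52, and only small-litter males 2 and 3 were low.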
